A study of Mus musculus with 24 samples.

Results

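The response to lymphodepleting chemotherapy was compared between the 2 kinds of myeloid-derived suppressor cell (MDSC) sorted from the same organ, the monocytic (M-MDSC) and the polymorphonuclear (PMN-MDSC) cells. The comparison used the 12 libraries labelled wild type (WT) of the 24 in the series, 3 in each of 4 groups: untreated M-MDSC, lymphodepleted M-MDSC, untreated PMN-MDSC and lymphodepleted PMN-MDSC. For each gene the change of the M-MDSCs (lymphodepleted minus untreated, in log2) was taken minus the change of the PMN-MDSCs. This difference of changes is the interaction: it is above 0 where the M-MDSC change was the more positive one and below 0 where the PMN-MDSC change was. All WT-labelled mice were C57BL/6 and carried B16 tumours, a transplantable mouse melanoma, of more than 25 mm2. Lymphodepleted mice received cyclophosphamide and fludarabine, untreated mice received neither, and spleens were taken on day 7 after treatment. The labels give no age or sex of the mice. The labels state a purity above 99% after sorting by flow cytometry, and the design text gives 3 untreated and 3 lymphodepleted WT mice. Whether the M-MDSC and PMN-MDSC libraries of a number came from the same mouse is not stated. A second set of 12 libraries, labelled IL-6 KO (strain B6.129S2-Il6tm1Kopf/J, without interleukin-6 by its label), had the same 4 kinds of group. It was used only for comparison.

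MDSCs are myeloid cells that accumulate where a tumour grows and hold T cells back. M-MDSCs resemble monocytes and PMN-MDSCs resemble neutrophils, and both descend from dividing granulocyte-monocyte progenitors of the marrow and, in stressed animals, of the spleen. A maturing neutrophil first makes primary (azurophil) granule proteins such as myeloperoxidase, then secondary granule proteins such as lactoferrin, and last the receptors of a mature cell such as CXCR2, by which time it no longer divides. Cyclophosphamide crosslinks DNA and fludarabine blocks DNA synthesis, so the pair kills lymphocytes and dividing precursors, and the marrow then rebuilds its myeloid cells.

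Levels are normalized read counts as the authors deposited them, and changes are on the scale of log2(normalized read count + 1), on which low genes show too small a change. Recovered depth was 7237462 to 11193088 reads in the WT M-MDSC libraries and 3249647 to 9357724 in the WT PMN-MDSC libraries, the lowest being the first lymphodepleted PMN-MDSC library. The 3 lymphodepleted PMN-MDSC libraries differed most among themselves: their root mean square deviation from the group mean was 0.85 to 0.93 in log2, against 0.32 to 0.45 in the 6 M-MDSC libraries. The labels fitted the markers Ccr2 and Retnlg. The monocyte receptor gene Ccr2 ran from 5288 to 7506 in M-MDSCs and from 69.6 to 321 in PMN-MDSCs, and the neutrophil gene Retnlg ran from 4.16 to 21.7 in M-MDSCs and from 1791 to 4188 in PMN-MDSCs. Mmp8 and Csf3r, neutrophil markers given below, were also read in M-MDSCs. Summed classical monocyte genes were 56350 to 67609 in untreated M-MDSCs and 14443 to 16001 in untreated PMN-MDSCs. Summed non-classical monocyte genes were 24435 to 26358 in untreated M-MDSCs and 25982 to 28137 in untreated PMN-MDSCs, ranges that overlap. Of the enzymes by which MDSCs are often defined, Arg1 (arginase) was between 0 and 10.9 and Nos2 (nitric oxide synthase) between 0 and 15.2 in the 12 libraries, so both fell under the filter on low counts and were not tested. Ly6g was not analysed here. The gene Il6 ran against the genotype labels, with 0 to 7.20 normalized reads in the 12 libraries labelled WT and 16.2 to 220 in the 12 labelled IL-6 KO, so WT and KO below name labels. In bulk samples such as these, fewer cells of a type and less RNA per cell cannot be told apart.

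Of 12301 genes tested, 88 (0.715%) passed the test of the interaction (limma, Benjamini-Hochberg adjusted p under 0.05), 68 above 0 (0.553%) and 20 below 0 (0.163%), and 1742 had an unadjusted p under 0.05. Those above 0 included genes of neutrophils such as S100a9, Cxcr2 and Hdc and genes of cell division such as Kif23, and those below 0 included the receptor genes Acvrl1, Ptgir and Il18r1. In M-MDSCs, within the same fit, lymphodepletion changed 771 genes (6.27%), 576 up (4.68%) and 195 down (1.59%). With weights per library the split in M-MDSCs was 1282 up and 1475 down, and without the third lymphodepleted PMN-MDSC library 792 up and 692 down. In PMN-MDSCs lymphodepletion changed 2889 (23.5%), 1169 up (9.50%) and 1720 down (14.0%). Both counts used a spread per gene pooled over the M-MDSC and PMN-MDSC libraries. The counts of 771 and 2889 are therefore not separate tests of each cell type. The split between up and down in PMN-MDSCs moved with the scaling: edgeR with TMM factors gave 1486 up and 1041 down, quantile normalization 1051 up and 879 down, and weights per library 544 up and 766 down. The median interaction over all genes tested was 0.12, and it was −0.02 under quantile normalization and −0.03 with edgeR, so a list median close to these values has no direction of its own.

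**Figure D1:**
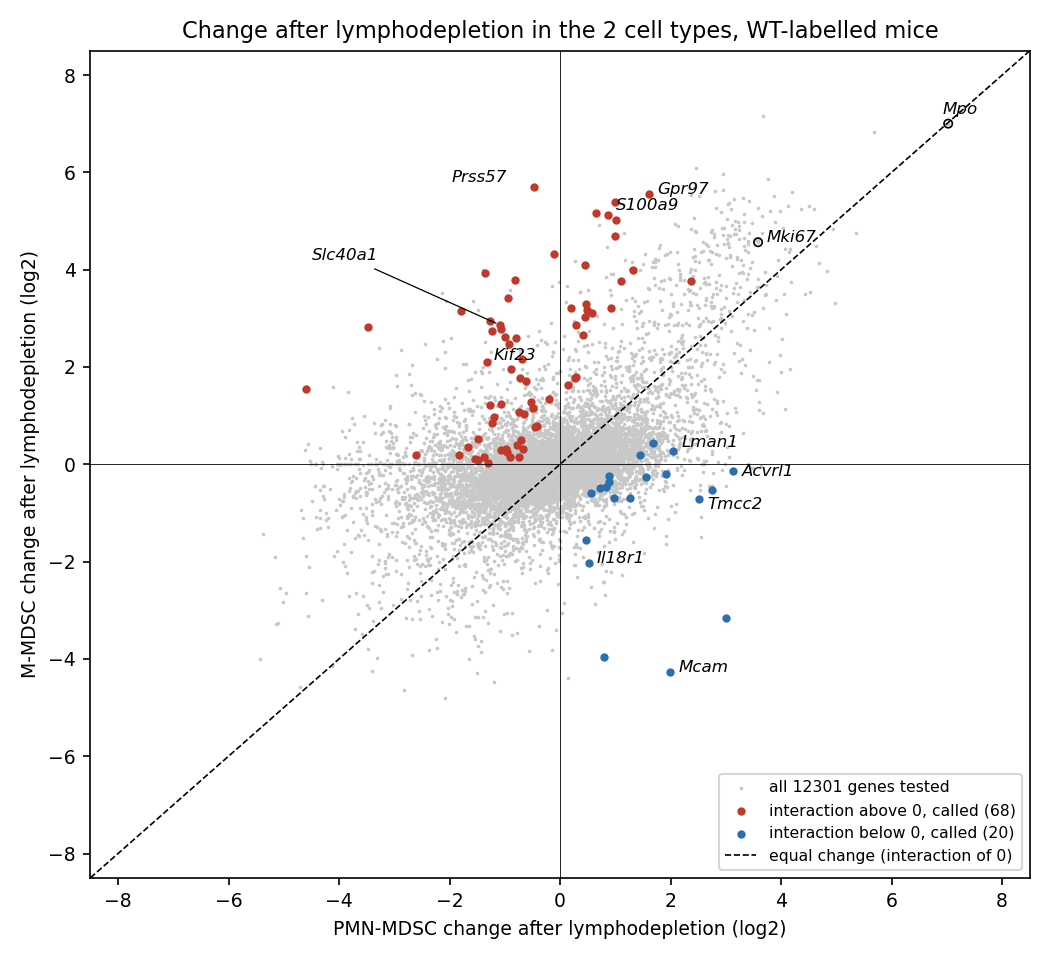
Change after lymphodepletion in PMN-MDSCs (horizontal axis, log2) against M-MDSCs (vertical axis, log2) for the 12301 genes tested in WT-labelled libraries, with the 68 genes called above 0 in red, the 20 called below 0 in blue and equal change on the dashed line. Mpo and Mki67 (open circles) rose in both cell types and were not called, whereas the red genes lie above the line on either side of a PMN-MDSC change of 0.

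The called genes fell into a few kinds. Of the 68 above 0, 35 rose in M-MDSCs with no call in PMN-MDSCs, 20 fell in PMN-MDSCs with no call in M-MDSCs, 8 rose in M-MDSCs and fell in PMN-MDSCs, and 5 rose in both, by more in M-MDSCs. Of the 20 below 0, 14 rose in PMN-MDSCs with no call in M-MDSCs, 3 fell in M-MDSCs with no call in PMN-MDSCs, and 3 fell in M-MDSCs and rose in PMN-MDSCs. Levels before treatment also differed. Among the 68, the untreated PMN-MDSC mean was above the untreated M-MDSC mean for 67 (98.5%), against 50.4% of all genes tested, and among the 20 it was above it for 3 (15%). The untreated libraries enter both numbers, so the 2 are not independent. After lymphodepletion the PMN-MDSC mean was the higher one for 49 of the 68 (72.1%) and 14 of the 20 (70.0%), against 49.6% of all genes. The M-MDSC mean was under 20% of the PMN-MDSC mean for 24 of the 68 (35.3%) and 6 of the 20 (30.0%), against 8.02% of all genes. The lymphodepleted libraries enter the interaction too, so these shares are not independent of the calls either.

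Of 19 tested genes on the mature neutrophil list, 5 were called, all above 0, and the median interaction was 1.41. The same list had a median change of 0.23 in M-MDSCs (6 up, 0 down) and −1.06 in PMN-MDSCs (1 up, 9 down). S100a9 (chr3:90692630-90695721) and S100a8 (chr3:90669071-90670034) encode the 2 subunits of calprotectin, the main protein of the neutrophil cytosol. S100a9 was 115, 239 and 167 in the 3 untreated M-MDSC libraries and 13758, 1850 and 7897 in the lymphodepleted ones, against 18896, 17688 and 18548 in untreated and 24618, 17599 and 85318 in lymphodepleted PMN-MDSCs. The M-MDSC groups did not overlap, whereas the second lymphodepleted PMN-MDSC library lay below all untreated ones and the third far above them. The change of S100a9 was 5.13 ± 0.63 (SE) in M-MDSCs and 0.86 ± 0.63 in PMN-MDSCs, an interaction of 4.27 ± 0.89 (limma adjusted p = 0.0458). S100a8 went from 64.2 to 83.2 up to 856 to 5309 in M-MDSCs, and its interaction was 4.0 ± 0.80 (limma adjusted p = 0.0387). Both calls were lost in 9 of the 12 fits that leave out 1 library.

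Cxcr2 (chr1:74153994-74161246) encodes the chemokine receptor that brings mature neutrophils out of the marrow. Its level was 14.1, 5.0 and 2.83 in untreated M-MDSCs and 33.3, 58.0 and 55.2 after lymphodepletion, while it went from 7140, 5282 and 4568 to 2684, 3456 and 2038 in PMN-MDSCs. Neither pair of groups overlapped. Every treated M-MDSC library was above and every treated PMN-MDSC library below its untreated group, and the M-MDSC change was called while the PMN-MDSC change was not (2.78 ± 0.41, limma adjusted p = 0.000562, against −1.06 ± 0.41 and 0.0747). The interaction was 3.85 ± 0.58 (limma adjusted p = 0.00706). Lymphodepleted M-MDSCs still held 1.79% of the Cxcr2 level of lymphodepleted PMN-MDSCs. G0s2, an inhibitor of triglyceride breakdown, had an interaction of 2.49 ± 0.41 (limma adjusted p = 0.012).

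Further genes with the largest interactions were also far higher in untreated PMN-MDSCs than in untreated M-MDSCs. Hdc (chr2:126593659-126624025) encodes histidine decarboxylase, which makes histamine and marks granulocytes and basophils. Its level was 37.7, 9.99 and 17 in untreated and 310, 130 and 230 in lymphodepleted M-MDSCs, and 11176, 9976 and 10651 against 6902, 5453 and 4446 in PMN-MDSCs. M-MDSCs thus went up without overlap from a very low level to 3.99% of the PMN-MDSC level, and PMN-MDSCs went down without overlap. The interaction of Hdc was 4.36 ± 0.54 (limma adjusted p = 0.00295). Mgam, a maltase, went from 1.67 to 11.8 up to 101 to 146 in M-MDSCs with hardly any change in PMN-MDSCs (−0.11 ± 0.42), an interaction of 4.43 ± 0.59. Slco4a1, an organic anion transporter, had 4.59 ± 0.53, the receptor gene Siglec5 had 4.93 ± 0.98, and Cxadr, the coxsackievirus and adenovirus receptor, had 5.29 ± 0.91. The tubulin gene Tuba8 (4.51 ± 0.80) and Chac1, a glutathione-degrading enzyme (4.21 ± 0.72), were each at under 1 normalized read in every untreated M-MDSC library. Chac1 reached only 6.90 to 9.98 in lymphodepleted M-MDSCs, where it holds few reads. Tmem40 had no read in untreated M-MDSCs and 28.6 to 58.6 normalized reads after lymphodepletion, so its fitted interaction of 4.40 depends on the pseudocount and ran from 2.23 to 7.27 over the alternatives tried. Gpr97, an adhesion receptor of granulocytes, and Cd63, a granule membrane tetraspanin, were picked after their values were seen, and had 3.94 ± 0.56 and 3.69 ± 0.49.

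The other mature neutrophil markers were looked at in the M-MDSC libraries. The summed level of the 14 genes of the list that were not called for the interaction was 4308 to 4767 in untreated M-MDSCs. It was 4218 to 4665 in lymphodepleted M-MDSCs, ranges that overlap, against 46048 to 204121 in the 6 PMN-MDSC libraries. The 14 were picked by having no interaction call in these same libraries, and their most abundant genes govern the sum. It therefore cannot show whether neutrophil genes as a whole rose in M-MDSCs. Of these 14, 2 rose in M-MDSCs and none fell. The sum over all 19 genes went from 5937 to 6396 up to 8796 to 25018 in M-MDSCs, but it holds the called genes S100a8 and S100a9. Retnlg went from 4.16 to 7.55 up to 10.3 to 21.7 in M-MDSCs, Mmp8, a neutrophil collagenase, from 259 to 300 up to 454 to 488, and Csf3r, the G-CSF receptor, from 2599 to 3004 to 2247 to 2617. Stfa2l1, a neutrophil protease inhibitor named here after its values were seen, was at 0 in all 6 M-MDSC libraries, and the other 18 genes of the list were not. Whether neutrophils carried over in the sort had a part in the interaction was not tested.

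**Figure D2:**
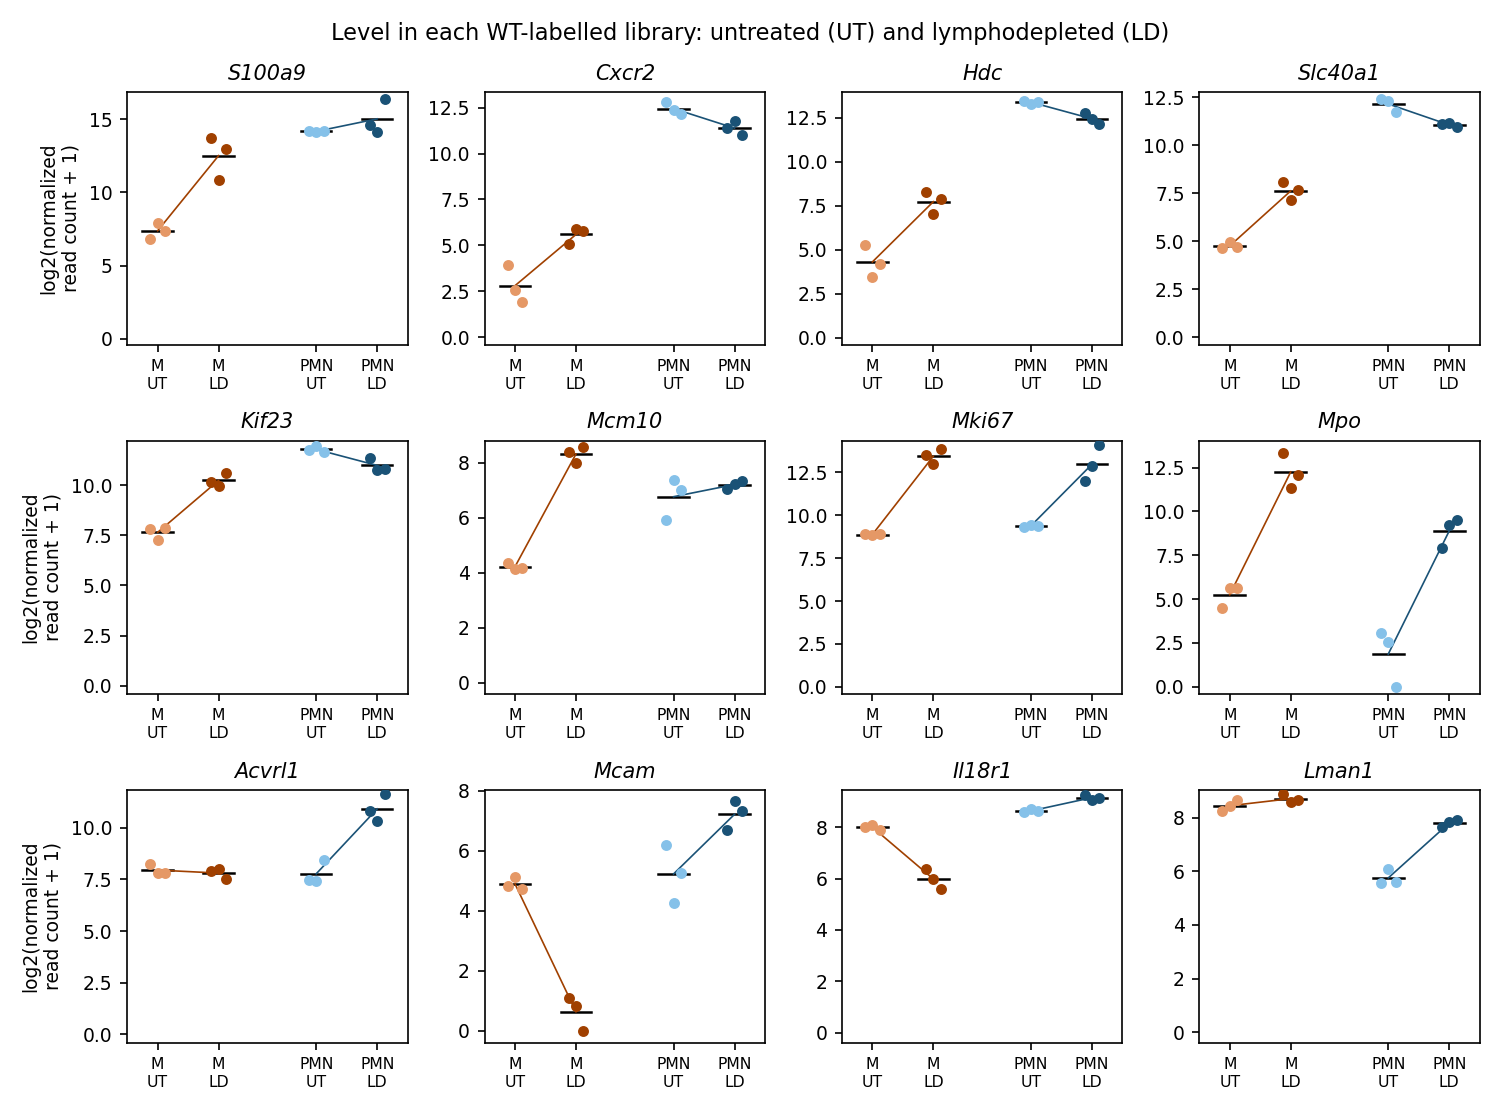
Level of 12 genes in each of the 12 WT-labelled libraries, as log2(normalized read count + 1), with points for libraries, a bar for the mean of 3 and lines joining untreated (UT) to lymphodepleted (LD) libraries of a cell type. S100a9, Cxcr2, Hdc, Slc40a1 and Kif23 climb in M-MDSCs from far below the PMN-MDSC level, Mpo and Mki67 climb in both, and Acvrl1 climbs in PMN-MDSCs alone.

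Genes of cell division rose in both cell types, and several rose by more in M-MDSCs. All 30 genes on the mitosis and spindle list rose in M-MDSCs (median 4.71), and in PMN-MDSCs 28 rose and 1 fell (median 2.96). The interaction was above 0 for 30 of 30, from 0.65 to 3.40 with a median of 1.71, but it was called for 3 of them: Kif23, Ect2 and Aurka. Without the third lymphodepleted PMN-MDSC library 16 of the 30 were called, under quantile normalization 8, and without any other single library 1 to 3. Mki67, a standard marker of dividing cells, was 469, 455 and 479 in untreated and 11444, 8177 and 14590 in lymphodepleted M-MDSCs, and 642, 686 and 666 against 4042, 7353 and 17068 in PMN-MDSCs. Treated and untreated libraries did not overlap in either cell type. Its interaction was 0.98 ± 0.52 (limma adjusted p = 0.423), and the interaction of Top2a, the topoisomerase of dividing cells, was 1.56 ± 0.44 (limma adjusted p = 0.123). The summed level of the list reached 27298 to 44038 in lymphodepleted M-MDSCs and 18712 to 50207 in lymphodepleted PMN-MDSCs, ranges that overlap. Before treatment it was 1564 to 1720 in M-MDSCs and 5998 to 7163 in PMN-MDSCs.

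Kif23 (chr9:61917277-61946810), a kinesin that bundles the midzone of the spindle, was the mitosis gene with the largest interaction. Its level was 225, 154 and 230 in untreated and 1134, 1013 and 1547 in lymphodepleted M-MDSCs. In PMN-MDSCs it was 3424, 4016 and 3234 and then 2636, 1734 and 1824. It rose by 2.59 ± 0.22 in M-MDSCs and fell by 0.80 on the log2 scale in PMN-MDSCs, with no overlap in either, and was the 1 gene of the list that fell there. The interaction was 3.40 ± 0.31 (limma adjusted p = 0.000186) and was called in all 12 fits that leave out 1 library. Lmnb1, which encodes the nuclear envelope protein lamin B1, had the same form, with 682 to 776 and 3473 to 5286 in M-MDSCs, 16180 to 17696 and 5867 to 12028 in PMN-MDSCs, and an interaction of 3.40 ± 0.33. Ect2, which sets up the cleavage furrow, rose in both (3.99 ± 0.37 and 1.33 ± 0.37). Aurka, the spindle pole kinase Aurora A, rose in M-MDSCs (3.30 ± 0.40) and changed by 0.47 ± 0.40 in PMN-MDSCs. The interactions of Ect2 (2.66 ± 0.52) and Aurka (2.83 ± 0.56) were lost without any 1 of several libraries: Ect2 kept its call in 3 of 12 such fits and Aurka in 5.

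Because the mitosis genes moved together, their promoters are shown for 4 of them. Cell cycle genes of the G2 and M phases often carry a CHR element, TTTGAA, a short way from a CCAAT box. Promoter windows reach from 250 bases before to 50 after the start of a gene (RefSeq, GRCm38.p6, the most upstream start listed), and both strands were searched, so ATTGG and TTCAAA are the same motifs on the other strand. The 2 motifs share no letters that would make one a part of the other. TTTGAA was found in 18 of the 24 mitosis genes with a window (75.0%), against 18.1% of 27025 genes in all and 11.8% of the 9136 tested genes with a window. CCAAT was found in 19 of 24 (79.2%), against 38.0% of all, and both in 16 of 24 (66.7%), against 7.16% of all. Of the genes of the interaction itself 70 of 88 matched a window: 13 of 54 above 0 (24.1%) and 3 of 16 below 0 (18.8%) held TTTGAA, and 21 of 54 (38.9%) and 5 of 16 (31.2%) held CCAAT. Both motifs were in 9 of 54 (16.7%) and 2 of 16 (12.5%), against 5.07% of the tested genes. The C/EBP-type motif TTGCNNAA was found in 5 of 54 (9.26%) and 1 of 16 (6.25%), against 8.45% of the tested genes and 10.7% of all windows. The 150 bases before the start of the window's gene entry are printed 5′ to 3′ on the strand of the gene, with both motifs in capitals. For Kif23 the start listed for its window lies inside the gene span given above. The last bases of its stretch, ATTGG among them, therefore fall within that span. Kif23 is shown as the called gene, and Cdk1, Cdc20 and Ccnb2, central regulators of mitosis chosen after their values were seen, as genes that rose in both cell types. No TTTGAA was found in the 250 bases before the start of Kif23. The TTTGAA of Ccnb2 lies further upstream, outside the stretch shown.
Kif23 (chr9:61946800-61946949, minus strand): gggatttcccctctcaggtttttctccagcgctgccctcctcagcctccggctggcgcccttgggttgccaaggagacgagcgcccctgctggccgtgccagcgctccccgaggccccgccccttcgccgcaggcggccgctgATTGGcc
Cdk1 (chr10:69352913-69353062, minus strand): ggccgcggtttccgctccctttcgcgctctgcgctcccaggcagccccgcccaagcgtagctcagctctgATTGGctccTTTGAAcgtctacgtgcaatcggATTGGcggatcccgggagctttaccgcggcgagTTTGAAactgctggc
Cdc20 (chr4:118437344-118437493, minus strand): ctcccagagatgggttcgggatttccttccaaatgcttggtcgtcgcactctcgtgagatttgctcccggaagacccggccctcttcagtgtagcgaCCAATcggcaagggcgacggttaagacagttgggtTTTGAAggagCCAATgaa
Ccnb2 (chr9:70421555-70421704, minus strand): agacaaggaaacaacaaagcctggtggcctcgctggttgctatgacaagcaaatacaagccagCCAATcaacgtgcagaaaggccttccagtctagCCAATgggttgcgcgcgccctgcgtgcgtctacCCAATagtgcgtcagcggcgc

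Cdk1, the kinase that drives mitosis, went from 16 to 16.7 up to 333 to 529 in M-MDSCs and from 21.6 to 60.9 up to 135 to 543 in PMN-MDSCs, an interaction of 1.82 ± 0.71 (limma adjusted p = 0.264). Cdc20, the activator of the anaphase-promoting complex, had 0.93 ± 0.76, and Ccnb2, cyclin B2, had 1.13 ± 0.69. The PMN-MDSC side of all 3 spread widely, the third lymphodepleted library holding 479 to 554 of each and the other two 103 to 257. A match to a motif describes letters only.

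DNA replication genes moved in the same way with smaller differences. Of 30 genes on that list 24 rose in M-MDSCs and 21 in PMN-MDSCs, none fell in either, and the median interaction was 0.67 with 3 called, a count of 0 in 7 of the 12 fits that leave out 1 library. The called genes were Cdc45 (2.52 ± 0.48) and Mcm4 (1.5 ± 0.30), parts of the replicative helicase, and Cdc6 (2.66 ± 0.53), which loads it. Cdc45 kept its call in 5 of the 12 fits and Mcm4 and Cdc6 in 4 each. Cdc45 was 26.4 to 39.3 in untreated and 205 to 386 in lymphodepleted M-MDSCs, and 115 to 185 and 148 to 284 in PMN-MDSCs, where the groups overlapped. Mcm10, another helicase factor, and Mybl2, a cell cycle transcription factor, had 3.66 ± 0.51 and 2.28 ± 0.44. They are on no list used here and were picked after their values were seen. Of 20 genes of crosslink repair and checkpoint, 13 rose in M-MDSCs and 15 in PMN-MDSCs, and none was called for the interaction. The nearest were Clspn, the checkpoint adaptor claspin (1.83 ± 0.41, limma adjusted p = 0.0675), and Neil3, a glycosylase that unhooks crosslinks (2.0 ± 0.48, limma adjusted p = 0.0837). The 22 genes on the list of replication-dependent histones, many with near-identical copies, rose in 20 cases in M-MDSCs and 21 in PMN-MDSCs, with medians of 3.58 and 3.63. Their interactions went from −1.66 to 2.38 with none called, and the median of −0.03 was 0.07 under quantile normalization. Hist1h1b, a gene of that list that encodes a linker histone and not a core histone, had −0.33 ± 0.36.

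Of 9 tested primary granule genes, 7 rose in M-MDSCs and 6 in PMN-MDSCs, and 1 was called for the interaction. Mpo (chr11:87793784-87804412), the gene of myeloperoxidase, was 21.2, 48.3 and 49.1 in untreated and 10398, 2580 and 4296 in lymphodepleted M-MDSCs, and 7.34, 4.80 and 0 against 244, 594 and 731 in PMN-MDSCs. No treated library overlapped an untreated one, and M-MDSCs held the higher level throughout. The rises were 7.00 ± 0.72 and 7.02 ± 0.72, an interaction of −0.02 ± 1.02 (limma adjusted p = 0.996). Its sign turned in 12 of the 25 alternatives tried. Elane, neutrophil elastase, had 1.15 ± 1.29, while Ms4a3, a gene of early granulocyte and monocyte precursors, had 3.49 ± 1.45 (limma adjusted p = 0.299). The median interaction of the list was 0.81, and 0.05 to 1.79 over the alternatives. The called gene was Prss57. Prss57, a serine protease of the same granules, went from 0 to 1.57 up to 64.2 to 113 in M-MDSCs and was 17.1, 18 and 47.9 and then 3.21, 16.7 and 83.6 in PMN-MDSCs. Its interaction was 6.18 ± 1.28 (limma adjusted p = 0.0439) and was called in 2 of 12 fits that leave out 1 library.

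Of 16 genes tested on the secondary and tertiary granule list, 7 rose in M-MDSCs and 11 in PMN-MDSCs, and none was called for the interaction. Ltf, lactoferrin, was 281, 243 and 195 in untreated and 10672, 2184 and 10806 in lymphodepleted M-MDSCs, and 5121, 8696 and 10005 against 46572, 30879 and 218541 in PMN-MDSCs. The second lymphodepleted M-MDSC library was the lowest of its group, and the third lymphodepleted PMN-MDSC library was the highest by far. The interaction of Ltf was 1.57 ± 0.93, of Camp (cathelicidin) 1.76 ± 0.87, of Ngp (neutrophilic granule protein) 1.84 ± 0.99 and of Lcn2 (lipocalin 2) 2.31 ± 1.11, none of them called. The ficolin gene Fcnb had 0.82 ± 0.95. The median of the list was 0.65, and 0.08 to 1.29 over the alternatives. Cybb, the membrane subunit of the NADPH oxidase, had the lowest value on that list, −2.34 ± 0.69 (limma adjusted p = 0.138). It was 9413 to 13246 in the 6 M-MDSC libraries and went from 1536 to 1826 up to 4780 to 30771 in PMN-MDSCs.

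Cebpe, the factor of granule gene expression, rose in both (4.85 ± 0.75 and 2.93 ± 0.75), and so did Gfi1 (2.29 ± 0.49 and 1.97 ± 0.49), a repressor needed for neutrophils. Their interactions were 1.92 ± 1.06 and 0.32 ± 0.69. Irf8, the factor of monocytes, had −0.38 ± 0.54 and Cebpa 0.42 ± 0.30. On the 12 monocyte transcription factors 0 were called in M-MDSCs, 8 fell in PMN-MDSCs, and 0 were called for the interaction (median 0.55, and −0.08 without the third lymphodepleted PMN-MDSC library). Myb, the factor of dividing progenitors, was the called gene of the progenitor list: 51.9 to 69.9 and 750 to 885 in M-MDSCs, 137 to 193 and 693 to 1025 in PMN-MDSCs, with rises of 3.76 ± 0.21 and 2.36 ± 0.21 and an interaction of 1.40 ± 0.30 (limma adjusted p = 0.0494). Myb kept that call in 2 of the 12 fits that leave out 1 library. Kit, the stem cell factor receptor, rose in both, with an interaction of 0.75 ± 0.58. Csf3r had 1.5 ± 0.55 and Csf1r, the M-CSF receptor, 0.62 ± 0.47, neither called. In PMN-MDSCs Csf3r went from 82656 to 102756 down to 45452, 44365 and 11386, the third library being the lowest.

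Where the cell types moved in opposite directions, both by a called change, 8 genes had an interaction above 0. Slc40a1 (chr1:45908070-45926532) encodes ferroportin, the cell's iron exporter, and had the lowest adjusted p of all. It was 23.6, 30.0 and 24.5 in untreated and 265, 141 and 198 in lymphodepleted M-MDSCs, and 5320, 5077 and 3415 against 2167, 2257 and 1947 in PMN-MDSCs. It rose by 2.86 ± 0.23 in the one and fell by 1.09 on the log2 scale in the other, an interaction of 3.96 ± 0.33 (limma adjusted p = 0.000147). Ferroportin is also a marker of splenic red pulp macrophages, whose list had a median interaction of 1.46 with Slc40a1 as the 1 called gene of 14 tested (0.52 to 1.90 over the alternatives). The summed level of that list was 1740 to 2850 in untreated and 1921 to 2758 in lymphodepleted M-MDSCs, and 5426 to 7202 against 2973 to 4171 in PMN-MDSCs. The part of such macrophages in the result was not tested. Cxcr4, which retains myeloid cells in the marrow, went from 235, 286 and 309 to 674, 476 and 609 in M-MDSCs and from 3428, 3211 and 2888 to 2003, 1975 and 1689 in PMN-MDSCs. Its interaction was 1.82 ± 0.24 (limma adjusted p = 0.00311). Dtx4, an E3 ligase of the Notch pathway, had 2.5 ± 0.39, and Oscp1 had 3.44 ± 0.62. With Kif23 and Lmnb1, the last of the 8 were Chst11, a chondroitin sulfotransferase (2.31 ± 0.30), and Igf1r, the IGF-1 receptor (1.68 ± 0.25), both named after their values were seen.

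Of 20 chemokine and receptor genes tested, 3 were called for the interaction, all above 0 (Cxcr2, Cxcr4 and Ccr1), and the median was 1.16. That median was 0.48 to 1.84 over the alternatives and 0.66 without the third lymphodepleted PMN-MDSC library. In M-MDSCs 2 rose and 1 fell, and in PMN-MDSCs 5 fell. Ccr1, an inflammatory chemokine receptor, was 97.3 to 127 and 197 to 280 in M-MDSCs and 2242 to 5341 and 1332 to 2207 in PMN-MDSCs, an interaction of 2.18 ± 0.41 that kept its call in 5 of the 12 fits that leave out 1 library. Vegfa, the angiogenic growth factor, was the called gene of 14 tested on the list of suppressive enzymes and ligands. It rose in M-MDSCs (1.71 ± 0.32) and changed by −0.62 ± 0.32 in PMN-MDSCs, with an interaction of 2.32 ± 0.45. Cd274, the checkpoint ligand PD-L1, fell in PMN-MDSCs (832 to 964 against 81.7 to 530) and had an interaction of 1.26 ± 0.67 (limma adjusted p = 0.421). Emb, an adhesion gene counted with classical monocytes, fell by 1.07 on the log2 scale in PMN-MDSCs and had an interaction of 1.35 ± 0.21. The classical monocyte list as a whole had a median interaction of −0.43, and −0.64 to −0.05 over the alternatives. Of its 15 tested genes 7 were above 0, and 2 were called, all above 0. Pdia4, a chaperone of the endoplasmic reticulum, fell by 1.54 on the log2 scale in PMN-MDSCs and had 1.65 ± 0.32, the 1 called gene of 19 in the unfolded protein response.

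The 20 genes with an interaction below 0 were on none of the 40 lists, so the lists cannot say whether these genes share a theme. Mcam (chr9:44134658-44142727), the adhesion molecule CD146, had the largest value. It was 27.5, 34.1 and 25.5 in untreated and 1.11, 0.774 and 0 in lymphodepleted M-MDSCs, and 72.2, 18 and 37.0 against 103, 199 and 158 in PMN-MDSCs. It fell in the one and rose in the other without overlap, an interaction of −6.25 ± 0.83 (limma adjusted p = 0.00311), of which the M-MDSC side rests on few reads. Acvrl1 (chr15:101128522-101145336), the TGF-beta family receptor ALK1, stayed at 184 to 299 in M-MDSCs and went from 177, 168 and 340 to 1785, 1258 and 3109 in PMN-MDSCs. Its PMN-MDSC change was 3.14 ± 0.32 and its interaction −3.28 ± 0.46 (limma adjusted p = 0.00415). Ptgir, the prostacyclin receptor, had −3.28 ± 0.67 and Tmcc2, a membrane protein of the endoplasmic reticulum, −3.24 ± 0.45, both through a rise in PMN-MDSCs. The same held for Plekhg1 (−2.12 ± 0.27) and Dock1 (−1.82 ± 0.23), guanine nucleotide exchange factors, for Abcc5, a nucleotide exporter (−1.96 ± 0.29), and for Lman1, a cargo receptor of the secretory pathway (−1.79 ± 0.31). Lman1 was 305 to 469 in all 6 M-MDSC libraries and went from 46.5, 67.2 and 47.9 to 202, 228 and 241 in PMN-MDSCs. Gfpt1, the entry enzyme of hexosamine synthesis, fell in M-MDSCs and rose in PMN-MDSCs (−1.67 ± 0.27).

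Il18r1 (chr1:40465552-40500854), the interleukin-18 receptor that NK and T cells also carry, was below 0 through its fall in M-MDSCs. Its level was 261, 276 and 236 in untreated and 82.1, 62.7 and 47.4 in lymphodepleted M-MDSCs, and 387, 419 and 394 against 620, 534 and 567 in PMN-MDSCs. The interaction was −2.54 ± 0.30 (limma adjusted p = 0.00203). Baiap3, a regulator of vesicle release, also fell in M-MDSCs (−1.56 ± 0.29), with an interaction of −2.03 ± 0.41. NK cell genes moved beside both. Of 15 tested on the NK list, 10 fell in M-MDSCs and 3 in PMN-MDSCs, and the median interaction was −1.23 with none called. Ncr1, the NK receptor NKp46, was 327 to 378 and then 24.1 to 69.3 in M-MDSCs, and 49.2 to 95.4 and then 12.8 to 49.2 in PMN-MDSCs, an interaction of −1.96 ± 0.74 (limma adjusted p = 0.241). Gzma, granzyme A, had −1.23 ± 0.40. The summed level of the NK list went from 2793 to 3255 down to 390 to 860 in M-MDSCs and from 602 to 769 down to 231 to 521 in PMN-MDSCs, with Ncr1 above 0 in every library. The part of NK cells in these interactions was not tested.

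Other lymphocyte genes fell in both cell types. Of 11 B cell genes tested, 6 fell in M-MDSCs and 11 in PMN-MDSCs, with medians of −2.71 and −3.70 and none called for the interaction (median 0.86, and 0.35 to 1.30 over the alternatives). Ebf1, the B cell factor, went from 26.6 to 44.0 down to 0 to 0.774 in M-MDSCs and from 144 to 202 down to 3.71 to 9.63 in PMN-MDSCs, an interaction of 0.13 ± 0.80 whose sign turned in 7 of 25 alternatives. Cd22, an inhibitory B cell receptor, had 1.2 ± 0.65. T cell genes had a median of 0.87 that was −0.07 under quantile normalization and −0.90 with a filter of 50, with none of 17 called.

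Antigen presentation and signalling lists had most of their falling genes in PMN-MDSCs and no called interaction. In the main fit falls were more common in PMN-MDSCs over all genes tested as well, at 14.0% against 1.59% in M-MDSCs. With weights per library that order turned, with 766 genes falling in PMN-MDSCs and 1475 in M-MDSCs. Of all genes tested 0.715% were called for the interaction. Of 24 genes of MHC class II and the interferon gamma response, 12 fell in PMN-MDSCs and 1 in M-MDSCs, and the interaction was above 0 for 23 with a median of 1.05 and none called (0.60 without the third lymphodepleted PMN-MDSC library). Cd74, the MHC class II chaperone, was 2688 to 6238 in all M-MDSC libraries and went from 1624 to 2027 down to 381 to 1152 in PMN-MDSCs, with 1.14 ± 0.48 (limma adjusted p = 0.309). Of 25 IL-6 and STAT3 response genes, 15 fell in PMN-MDSCs and 1 in M-MDSCs, and the median interaction was 0.52 with none called (0.23 under quantile normalization and 0.27 without the third lymphodepleted PMN-MDSC library). Stat3 itself had 0.37 ± 0.20, Il6ra, the IL-6 receptor, 0.52 ± 0.32, Cebpb 0.42 ± 0.36 and the feedback inhibitor Socs3 0.58 ± 0.71. Immediate early genes fell in PMN-MDSCs for 11 of 19 (median interaction 0.85), and 9 of 29 type I interferon genes fell there (median 0.63), none being called for the interaction. Without the third lymphodepleted PMN-MDSC library these 2 medians were 0.15 and 0.25, and under quantile normalization 0.40 and 0.31. Il1b, interleukin-1 beta, went from 34181 to 47048 down to 19190, 17857 and 2698 in PMN-MDSCs, the third library again being the lowest, and had 1.21 ± 0.98. Bcl2, a survival gene, fell in both cell types (−1.64 ± 0.33 and −1.16 ± 0.33), an interaction of −0.48 ± 0.46. Cytosolic ribosomal protein genes had a median interaction of 0.04 and nuclear-encoded respiratory chain genes of −0.31, with none called among 27 each. The signs of both turned in some alternatives, which gave −0.16 to 0.19 and −0.56 to 0.14.

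**Figure D3:**
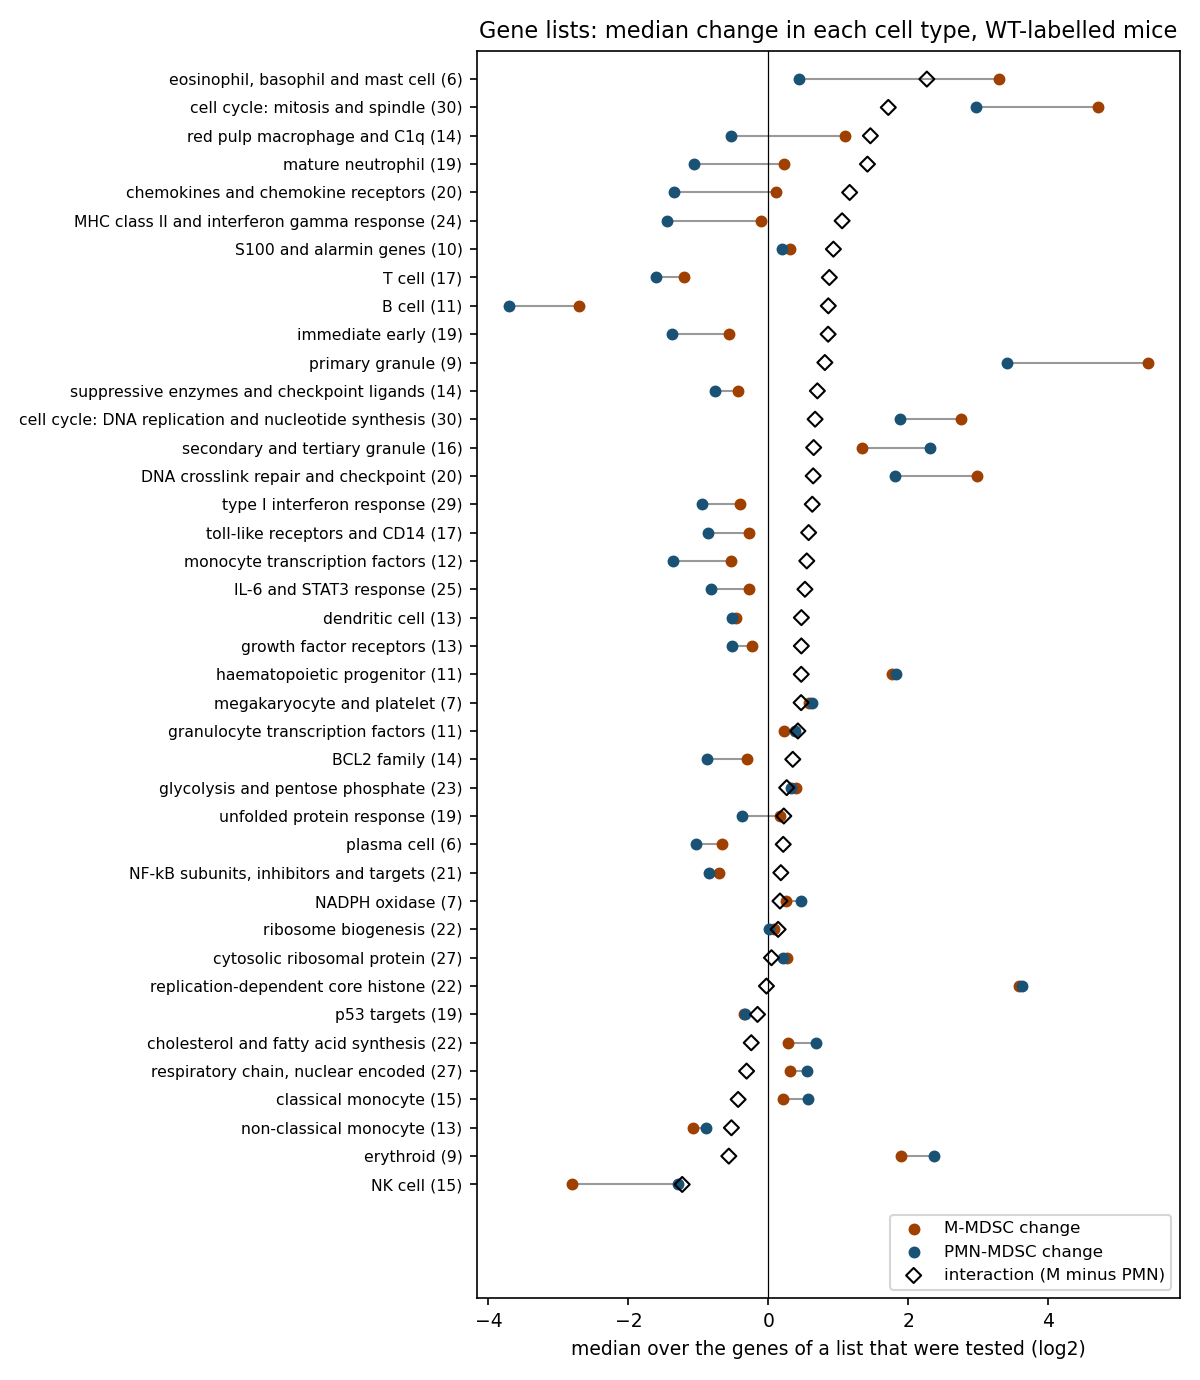
Median change in M-MDSCs (brown) and PMN-MDSCs (blue) and median interaction (open diamonds), in log2, over the tested genes of each of 40 lists, with the number tested in brackets. The 6 tested eosinophil, basophil and mast cell genes are highest (2.26, and 1.25 to 4.36 over the alternatives), with 1 of them called, Hdc. Mitosis (1.71), red pulp macrophage (1.46) and mature neutrophil genes (1.41) follow. The NK list is lowest at −1.23, where the median over all genes is 0.12.

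The same interaction was fitted in the 12 libraries labelled IL-6 KO, which share no library with the WT fit. It called 1 gene of 12281 (0.00814%), Il18r1, at −2.16 ± 0.27 (limma adjusted p = 0.0156), and 957 had an unadjusted p under 0.05. The count of called genes ran from 0 without a trend in the prior variance to 20 with weights per library. All 88 genes called in WT had a KO value. Of the 68 above 0 in WT, 66 were above 0 in KO (97.1%), against 53.7% of the 11871 genes tested in both, and of the 20 below 0, 18 were below 0. The median KO value was 1.25 for the 68, against 2.51 in WT, and −0.80 for the 20, against −1.89. These genes were chosen by their WT values and not by their KO values, so the 2 medians are not on an equal footing. The difference between the WT and the KO interaction was tested directly in all 24 libraries, and none of 13457 genes was called (0%), with limma and 812 at an unadjusted p under 0.05 and a lowest adjusted p of 0.287. Without a trend in the prior variance the count was 1. For single genes the differences had wide errors. S100a9 had 3.02 ± 0.64 in KO, a difference of 1.26 ± 1.19, and Cxcr2 2.10 ± 0.68, a difference of 1.75 ± 0.96. For Slc40a1 the KO value was 1.56 ± 0.57 and the difference 2.40 ± 0.71 (limma adjusted p = 0.696), and for Lman1 they were 0.70 ± 0.43 and −2.48 ± 0.53 (limma adjusted p = 0.385). No difference between the labels is shown by these tests, nor do they show that the 2 sets act alike.

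**Figure D4:**
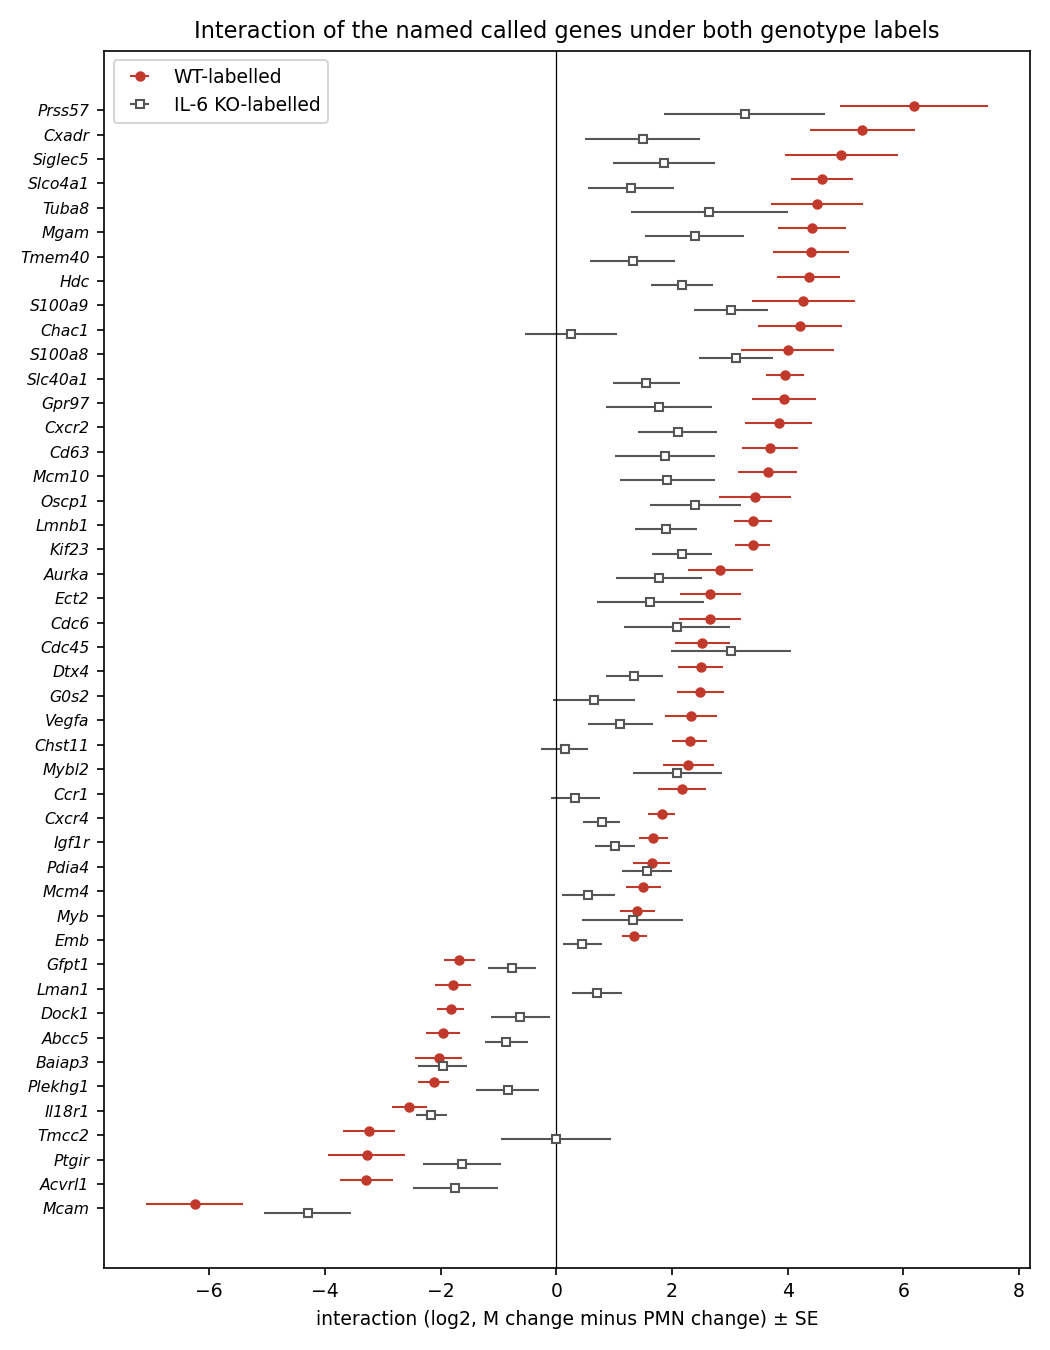
Interaction (log2) ± SE of the 46 called genes named in the text, in WT-labelled (red circles) and IL-6 KO-labelled (open squares) libraries. Il18r1 is the 1 gene called in both, and Lman1 has a KO value on the other side of 0, at 0.70.

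The count of 88 depended on which library was left out. Without the first lymphodepleted PMN-MDSC library, the shallowest, it was 411, without the third 302 and without the second 155. Without the second lymphodepleted M-MDSC library it was 80. Without any other single library it lay between 30 and 46. Of the 88 genes, 26 were called in all 12 such fits, among them Slc40a1, Kif23, Lmnb1, Hdc, Cxcr2, Cxcr4, Mgam, Slco4a1, Mcam, Acvrl1, Il18r1, Plekhg1 and Dock1. Of the named genes not yet given so, G0s2 and Gfpt1 kept their calls in 11 of the 12, Chac1 in 8, Cxadr, Tuba8, Oscp1 and Lman1 in 7, Siglec5 and Vegfa in 5, Pdia4 and Mybl2 in 4, and Ptgir and Baiap3 in 3. With both shallow PMN-MDSC libraries left out, an alternative chosen after seeing the data, 105 genes were called and 56 of the 88 were among them.

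**Figure D5:**
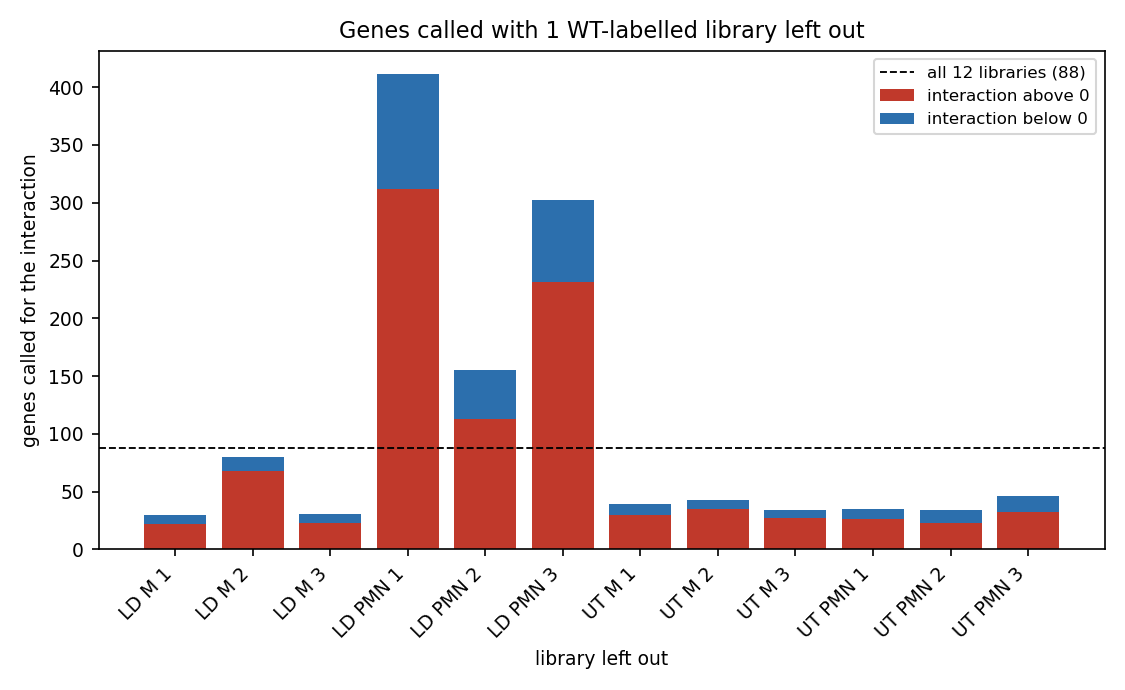
Number of genes called for the interaction (vertical axis) with 1 WT-labelled library left out at a time (horizontal axis), split into those above 0 (red) and below 0 (blue), with the count from all 12 libraries dashed at 88. The 3 fits without a lymphodepleted PMN-MDSC library call 155 to 411 genes and the other 9 call 30 to 80.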

How the data were processed

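Total RNA of spleen MDSCs was extracted with a column kit, and 100 ng went into NuGen Ovation libraries with ribosomal RNA depletion, per the labels' protocols. STAR 2.5.3a, HTSeq 0.6.1, DESeq2 and mm10 were used, per the submitters' processing notes. Strand setting, gene annotation, filters and the release of DESeq2 are not given in the sources at hand. The authors deposited a signal table of normalized read counts, 23479 genes by 24 libraries. Reads from overlapping or antisense genes may be mixed in these values. In the WT libraries dividing each value by the worth of 1 read gave a whole number for 100% of values (within 0.001), and these reads were used in edgeR 4.0.16 and DESeq2 1.42.0. Depth was 3249647 to 11193088 reads, and the ribosomal transcript Rn45s took 4.09 to 18.0% of them.

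The interaction was fitted with limma 3.58.1 in R 4.3.3 with a trend in the prior variance, on log2(normalized count + 1), with 1 mean per group over the 12 WT libraries. A gene entered the test with at least 10 normalized counts in 3 or more of them. Tests were two-sided, p-values were adjusted by the Benjamini-Hochberg method over every gene in the contrast, with calls made under 0.05. The scripts were tested on simulated data. P-values and SEs rest on 1 spread per gene, that of libraries within groups, pooled over all groups of a fit. The SE is thus the same for the M-MDSC and the PMN-MDSC change of a gene, although the lymphodepleted PMN-MDSC libraries spread most. Replicate numbers were not used as pairs: no source at hand says whether same-numbered M-MDSC and PMN-MDSC libraries share a mouse, and their deviations correlated at −0.06 to 0.18.

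Named genes are the 10 largest called interactions in each sign, where the highest group mean reached 100, and the 5 largest in each sign called in opposite directions. To these come key genes of myeloid biology and up to 3 called members of a described list, or 2 of its most abundant where none was called. Antigen receptor segments, pseudogenes, small RNAs and unnamed models were not eligible, and further picks are marked in the text. One result under this rule is not reported here. The comparison, its 40 lists (681 genes, 629 tested) and the tests were chosen with earlier results of these data known. Alternatives were pseudocounts of 0.5 and 5, no filter, a filter of 50, quantile normalization, edgeR, DESeq2, replicate blocks, all 24 libraries, no trend and leaving out each library. Array weights and leaving out the WT PMN-MDSC libraries of low depth were added after seeing the data, as were those for the KO libraries and the difference.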

Additional observations from a re-analysis of the deposited data

Results flagged for a closer look

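The results here are those in which the effect of lymphodepletion differed between M-MDSCs and PMN-MDSCs by the test of that difference. In WT-labelled libraries there were 88 such genes. The WT interaction of each named gene (log2) is followed by its value in the KO-labelled libraries, which entered no selection.

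Among neutrophil genes and others higher in untreated PMN-MDSCs than in M-MDSCs, the WT and KO values were, in this order, Cxadr 5.29 and 1.49, Siglec5 4.93 and 1.87, Slco4a1 4.59 and 1.30, Tuba8 4.51 and 2.65, Mgam 4.43 and 2.39, Tmem40 4.40 and 1.32, Hdc 4.36 and 2.17, S100a9 4.27 and 3.02, Chac1 4.21 and 0.26, S100a8 4.0 and 3.10, Prss57 6.18 and 3.26, Cxcr2 3.85 and 2.10, G0s2 2.49 and 0.66, Cd63 3.69 and 1.88 and Gpr97 3.94 and 1.78. Of these, Chac1 had a KO value less than 1 SE from 0.

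For genes of dividing cells and progenitors the values were Kif23 3.40 and 2.17, Lmnb1 3.40 and 1.89, Ect2 2.66 and 1.62, Aurka 2.83 and 1.77, Cdc45 2.52 and 3.02, Cdc6 2.66 and 2.09, Mcm4 1.5 and 0.55, Mcm10 3.66 and 1.92, Mybl2 2.28 and 2.10 and Myb 1.40 and 1.33. All 10 were above 0 under both labels, and Cdc45 was the 1 whose KO value was the larger.

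The other genes above 0 had Slc40a1 3.96 and 1.56, Oscp1 3.44 and 2.41, Dtx4 2.5 and 1.35, Emb 1.35 and 0.45, Vegfa 2.32 and 1.11, Cxcr4 1.82 and 0.79, Ccr1 2.18 and 0.33, Pdia4 1.65 and 1.57, Chst11 2.31 and 0.14 and Igf1r 1.68 and 1.02. The genes below 0 had Mcam −6.25 and −4.30, Acvrl1 −3.28 and −1.74, Ptgir −3.28 and −1.63, Tmcc2 −3.24 and −0.00, Il18r1 −2.54 and −2.16, Plekhg1 −2.12 and −0.84, Baiap3 −2.03 and −1.96, Abcc5 −1.96 and −0.86, Dock1 −1.82 and −0.62, Lman1 −1.79 and 0.70 and Gfpt1 −1.67 and −0.77. The KO interaction of Il18r1, at −2.16, was also called.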

How the results depend on the processing

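Of the 46 called genes named, 21 stayed called in every alternative and 23 in all 12 fits that leave out 1 WT library, and none changed sign. The count of 88 for the WT interaction was 152 without a filter, 473 with DESeq2 and, with 1 library left out, 30 to 411. With edgeR it was 79 and with quantile normalization 77. The replicate block gave 47 calls, 45 of them among the 88, and a block by treatment and number 65, 53 of them among the 88. Whether the numbers mark shared mice is not known. In all but the first lymphodepleted pair a library correlated best with its own number, a hint from the data only. The WT M-MDSC count of 771 was 1185 with DESeq2, 2757 with array weights and 476 to 1484 with 1 library left out. The WT PMN-MDSC count of 2889 was 1310 with array weights and 1578 to 3977 with 1 left out. The single KO call became 9 under quantile normalization, 2 with the replicate block, 17 with the block by treatment and number, 13 in a fit of all 24 libraries, 0 without a trend, 20 with array weights and 0 to 9 with 1 left out. The difference between labels gave 1 call without a trend and 0 to 3 with 1 left out. No count test was run on the KO libraries or the difference.

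Of 37 named genes not called, 8 changed sign in an alternative, and the cause was not tested. Ebf1 was −0.41 with a pseudocount of 0.5, −0.014 under quantile normalization, −0.90 with edgeR and −1.07 with DESeq2, and −0.10 to 0.48 with 1 library left out. Mpo was 1.03 with a pseudocount of 5, 0.33 with edgeR, 0.30 with DESeq2, 0.31 with array weights, 0.43 without the shallow PMN-MDSC libraries and −0.62 to 0.91 with 1 left out. Under quantile normalization Socs3 was −0.037, Stat3 −0.0089 and Hist1h1b 0.46, and with edgeR Elane was −0.0056. With 1 library left out Gfi1 ran from −0.19 to 0.81, Irf8 from −0.97 to 0.10 and Socs3 from −0.27 to 1.07. Low counts limit Chac1, Tmem40, Prss57 and Mcam, whose M-MDSC values rest on few reads.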
